A study of Homo sapiens with 8 samples.

Results

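The comparison of MOV10 knockdown with an irrelevant siRNA in HEK293F cells was examined gene by gene. HEK293F is an established human line of embryonic kidney origin. Of the 23368 gene symbols counted, 15254 passed a filter on low counts and form the set described here, and the other 8114 had too few reads to be tested. Knockdown cells were given siRNA against MOV10 and control cells an irrelevant siRNA, each 3 times with 24 h between rounds. Knockdown libraries 2 and 3 and control libraries 1, 2 and 3 were compared, and 3 libraries of cells transfected once with a plasmid for myc-tagged MOV10 entered the same model. Total counts were 32.8 and 19.4 M reads with knockdown and 22.7, 19.4 and 14.96 M in the controls. Whether the libraries of a group are separate cultures is not in the labels, and the p-values therefore cover library-to-library spread alone, possibly technical.

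MOV10 is an RNA helicase that moves along single-stranded RNA, often from the 3' untranslated region (3' UTR) of a message. It binds Argonaute proteins, which carry microRNAs to their targets, as well as the fragile X protein FMRP and the decay factor UPF1, and it restrains retroelements and some viruses. The comparison shows which messages differed between cells given siRNA against MOV10 and cells given an irrelevant siRNA. Other effects of the siRNAs were not tested apart from the fall in MOV10. Levels are given as CPM, read counts scaled by library size with TMM correction, and they are not per gene length, so levels are compared between libraries and not between genes. Differences are log2 fold changes of knockdown over control with their standard errors (SE) from edgeR's quasi-likelihood fit. A gene is said to have risen or fallen where its Benjamini-Hochberg adjusted p over all 15254 genes lay under 0.05.

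MOV10 itself stood at 50.6 and 55.5 CPM with knockdown and at 76.8, 76.4 and 91.2 CPM in the controls. Both knockdown libraries lay below all 3 control libraries. Its log2 fold change was -0.62 ± 0.08 (adjusted p = 8.84e-06). In cells carrying the plasmid it reached 2971, 2916 and 2454 CPM. Among the 28 measured genes of Argonaute silencing and MOV10's partners, 9 rose and 5 fell, MOV10 included, with a median of 0.06. EIF2C2, the symbol used in the table for AGO2, the Argonaute that cuts its targets, stood at 42.4 and 46.9 CPM with knockdown and at 48.2, 54.7 and 52.0 CPM in the controls and changed by -0.21 ± 0.07. EIF2C1 and EIF2C3, its non-cutting relatives AGO1 and AGO3, rose by 0.17 and 0.30. TNRC6A, a GW182 scaffold that links Argonaute to the deadenylases, rose by 0.37, and DICER1, which cuts microRNAs from their precursors, changed by -0.18. FMR1, the gene of FMRP, changed by -0.15, and UPF1 rose by 0.28. These changes were smaller than that of MOV10. With knockdown library 2 left out, 5 of the group rose and 2 fell. The falls numbered 2 without knockdown library 3, 3 without control library 1 and 2 without control library 2.

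Many genes shifted a little and few shifted much. By edgeR's test 3036 genes (19.9%) rose and 2907 (19.1%) fell. Both knockdown libraries lay above every control library for 4963 genes (32.5%) and below every one for 4747 (31.1%). The median absolute log2 fold change of the called genes was 0.34, and 90% of all genes tested lay between -0.73 and 0.50. Changes of at least 2-fold were seen for 155 genes that rose and 307 that fell. The plot of fold change against expression shows this as a narrow band that widens among weakly expressed genes. The group's libraries were close to each other: of 11055 genes whose log2 CPM averaged 3 or more, 0.0543% differed by more than 1.5-fold between knockdown libraries 2 and 3, and at most 0.0181% between any pair of controls. After removal of knockdown library 2, the deeper of the pair, 1577 genes rose and 1466 fell. With library totals in place of TMM, 39.5% of called genes were higher, against 51.1%.

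**Figure D1:**
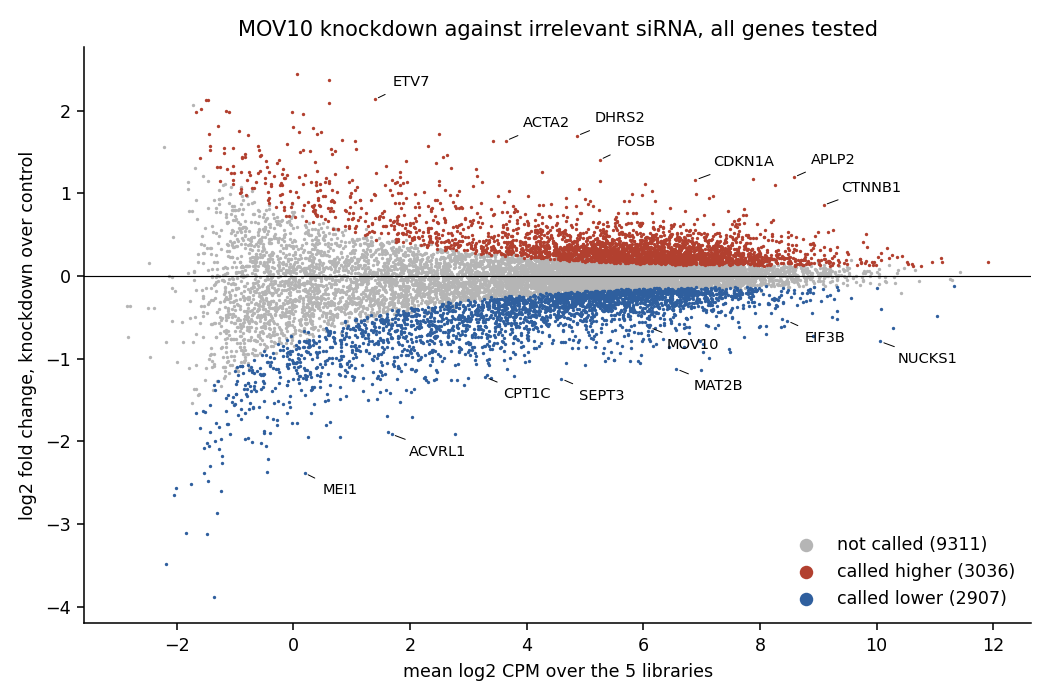
Each point is 1 of the 15254 genes tested, with its mean log2 CPM over the 5 libraries across and its log2 fold change of knockdown over control upward; red and blue mark genes called higher (3036) and lower (2907) at an adjusted p under 0.05. Most coloured points lie close to the zero line, and the labelled genes are members of the named sets.

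The direction of change went with the level of a gene. Genes with an annotated 3' UTR (13674 of those tested) were divided into 5 equal classes by mean log2 CPM. In the lowest class 9.21% rose and 22.9% fell, with a median of -0.20. In the highest class 31.0% rose and 12.7% fell, with a median of 0.06. The share that rose grew with each class from the lowest to the highest. Called genes that fell had a median 3' UTR of 1743.5 bases, those that rose 1391 and those not called 1313. In the class of 5 with the longest 3' UTRs 18.2% rose and 25.7% fell, and in the shortest 19.6% rose and 16.4% fell. GC content of the transcript separated the groups less, with medians of 47.9% among genes that rose, 47.7% among those that fell and 48.9% among the rest.

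Among genes of at least moderate expression (mean log2 CPM of 3 or more), the largest rises named a dehydrogenase, an actin, histones, an AP-1 subunit and matrix genes. DHRS2, a short-chain dehydrogenase, stood at 66.7 and 50.6 CPM with knockdown and at 19.4, 18.3 and 16.8 CPM in the controls. ACTA2, the smooth muscle actin, stood at 24.8 and 23.9 CPM with knockdown and at 7.18, 8.39 and 8.08 CPM in the controls. FOSB, a FOS family partner of JUN in the AP-1 factor, stood at 67.1 and 69.4 CPM with knockdown and at 28.3, 22.6 and 26.2 CPM in the controls. The log2 fold changes were 1.70 ± 0.10, 1.64 ± 0.09 and 1.40 ± 0.08. Genes named by the size of their change, here and at other levels of expression, were picked among called genes without overlap between knockdown and control libraries. Their lack of overlap was therefore fixed by the choice. LAMC1, the gamma chain shared by most laminins, stood at 372 and 397 CPM with knockdown and at 178, 163 and 172 CPM in the controls, a change of 1.17 ± 0.06 (adjusted p = 3.27e-11). CDKN1A, which encodes the p21 brake on cyclin-dependent kinases, stood at 202 and 183 CPM with knockdown and at 83.6, 86.4 and 88.0 CPM in the controls, a change of 1.16 ± 0.06 (adjusted p = 3.72e-11). In both genes the knockdown libraries held more than any control, as the choice required. DNAH17, a heavy chain of axonemal dynein, rose by 1.14 ± 0.10, HTRA1, a secreted serine protease, by 1.14 ± 0.10, and SLC4A5, a sodium bicarbonate cotransporter, by 1.21 ± 0.12. The 3 replication-dependent histone genes in this set, HIST1H4H, HIST1H2BD and HIST1H2AC, are described with the other histones.

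The genes that fell most at this level came from quite different cell functions. SEPT3, a septin of nerve cells, stood at 13.3 and 15.5 CPM with knockdown and at 30.9, 32.7 and 38.1 CPM in the controls. CPT1C, a neuronal relative of the carnitine palmitoyltransferases, stood at 6.12 and 5.42 CPM with knockdown and at 12.8, 14.0 and 14.2 CPM in the controls. Both genes lay lower in each knockdown library than in any control, as the choice required, with changes of -1.24 ± 0.09 and -1.22 ± 0.12. SLC2A3, the high-affinity glucose transporter GLUT3, stood at 65.5 and 94.2 CPM with knockdown and at 167, 170.4 and 184 CPM in the controls, a change of -1.14 ± 0.10 (adjusted p = 2.94e-08). Its knockdown libraries differed from each other, and both lay far under the controls. MAT2B, the regulatory subunit of methionine adenosyltransferase, stood at 60.1 and 58.2 CPM with knockdown and at 133, 128 and 125 CPM in the controls, a change of -1.12 ± 0.06 (adjusted p = 3.72e-11). DIXDC1, a regulator of Wnt signalling with a DIX domain, stood at 19.7 and 21.0 CPM with knockdown and at 39.4, 45.7 and 43.3 CPM in the controls, a change of -1.08 ± 0.08. The knockdown values of both genes were close together and far under the controls. EBF2, an early B-cell factor, changed by -1.21 ± 0.10, SPTBN4, a spectrin of axons, by -1.19 ± 0.12, and ANXA3, an annexin, by -1.13 ± 0.10. DUSP4, a phosphatase of MAP kinases, changed by -1.07 ± 0.10, KLC3, a kinesin light chain, by -1.06 ± 0.12 and FAM213A by -1.05 ± 0.09.

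**Figure D2:**
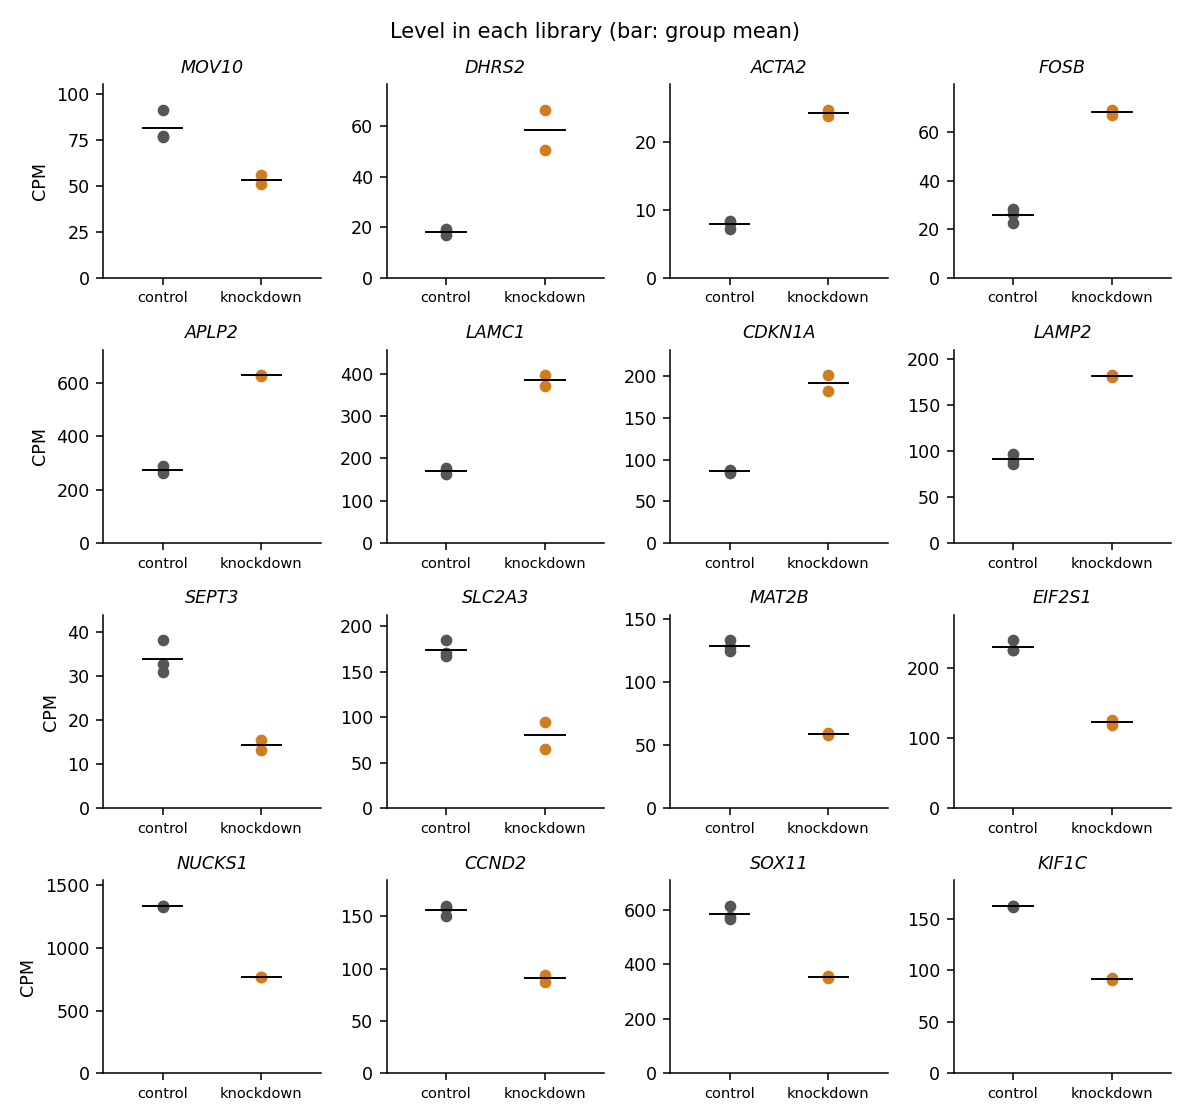
Level in CPM of 16 genes in each control library (grey) and each knockdown library (orange), with a bar at the group mean and every axis starting at 0. In all 16 the knockdown libraries lie beyond every control library, from MOV10 at 50.6 and 55.5 CPM against 76.8, 76.4 and 91.2 CPM to NUCKS1 at 766 and 771 CPM against 1329.7, 1336 and 1323 CPM. For genes named by the size of their change this was a condition of the choice.

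Some of the most abundant messages of the cell were among those that changed. Among those averaging a log2 CPM of 8 or more, APLP2, which belongs to the amyloid precursor family, stood at 630.3 and 627 CPM with knockdown and at 288, 261 and 274 CPM in the controls, and changed by 1.19 ± 0.05. NID1, the basement membrane linker nidogen, stood at 505 and 466 CPM with knockdown and at 233, 227 and 219 CPM in the controls, and changed by 1.10 ± 0.05 (adjusted p = 7.06e-12). CTNNB1, the beta-catenin of adherens junctions and Wnt signalling, stood at 799 and 756 CPM with knockdown and at 437, 427 and 423 CPM in the controls, and changed by 0.86 ± 0.05 (adjusted p = 7.94e-11). No control library reached a knockdown library in these 3 genes, as the choice required. Smaller rises were those of NUP210, a nuclear pore protein (0.68 ± 0.05), the collagen lysyl hydroxylase PLOD2 (0.65 ± 0.10), the chaperone calreticulin, CALR (0.56 ± 0.05), the amino acid transporter subunit SLC3A2 (0.56 ± 0.06) and ferritin light chain, FTL (0.54 ± 0.07). PLOD2 differed between the knockdown libraries, at 331 and 442 CPM, and both exceeded the controls at 246, 249 and 240.4 CPM.

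Among abundant messages that fell, NUCKS1, a chromatin protein phosphorylated by cyclin-dependent kinases, stood at 766 and 771 CPM with knockdown and at 1329.7, 1336 and 1323 CPM in the controls, and changed by -0.79 ± 0.05 (adjusted p = 3.3e-10). SOX11, a transcription factor of embryonic neural cells, stood at 357 and 349.6 CPM with knockdown and at 568, 616 and 574 CPM in the controls, and changed by -0.73 ± 0.06. In both genes the knockdown libraries were close together, and under every control as the choice required. CBX3 and CBX5, the heterochromatin proteins HP1 gamma and HP1 alpha, changed by -0.70 ± 0.06 and -0.61 ± 0.06. ANP32E, a chaperone that removes the histone variant H2A.Z, changed by -0.61 ± 0.06 and the nucleolar phosphoprotein gene NOLC1 by -0.61 ± 0.05. AMOT, the angiomotin that holds YAP at junctions, stood at 922 and 977 CPM with knockdown and at 1462, 1489 and 1469 CPM in the controls, and changed by -0.63 ± 0.05. EIF3B, a scaffold subunit of the initiation factor eIF3, stood at 288 and 276 CPM with knockdown and at 406, 419.7 and 406 CPM in the controls, and changed by -0.54 ± 0.05. In AMOT and EIF3B, too, the libraries of the groups did not overlap, again a condition of the choice.

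Weakly expressed genes (mean log2 CPM of 0 to 3) showed the largest ratios, from few reads. LOC339166 stood at 2.92 and 2.18 CPM with knockdown and at 0.488, 0.466 and 0.468 CPM in the controls, C5orf27 at 4.25 and 3.24 CPM with knockdown and at 0.842, 0.518 and 0.868 CPM in the controls, and ETV7, an ETS family repressor, at 6.69 and 5.53 CPM with knockdown and at 1.46, 1.45 and 1.27 CPM in the controls. Their changes were 2.45 ± 0.26, 2.37 ± 0.23 and 2.14 ± 0.18. In the other direction MEI1, a gene of meiosis, stood at 0.412 and 0.319 CPM with knockdown and at 1.82, 2.12 and 2.07 CPM in the controls, PHACTR1, a phosphatase and actin regulator, at 0.856 and 0.532 CPM with knockdown and at 2.31, 3.00 and 3.41 CPM in the controls, and ACVRL1, an endothelial receptor of the BMP family, at 1.40 and 1.38 CPM with knockdown and at 5.05, 5.28 and 5.48 CPM in the controls. Their changes were -2.38 ± 0.29, -1.95 ± 0.27 and -1.91 ± 0.17, and the sialyltransferase gene ST6GALNAC1 changed by -1.95 ± 0.32. The groups did not overlap in any of these 7 genes, as the choice required.

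Gene groups were described by the number of measured members that rose or fell, to be read against 19.9% and 19.1% over all genes, and by the median log2 fold change, which was 0.00 over all genes. Those values over all genes vary with expression. In the lowest of the 5 classes by level 9.21% rose and 22.9% fell, with a median of -0.20. In the highest class 31.0% rose and 12.7% fell, with a median of 0.06. No list was matched for level, so leans of lists with many weakly expressed members were not told apart from that trend. The lists were chosen with earlier results of these data known, so their counts describe the members and are not independent evidence. The bar plot of called shares sets them side by side. The counts of rises for p53 targets, immediate early genes, basement membrane, endoplasmic reticulum and lysosome, and of falls for synaptic and RAB genes, stayed within 1.5 times of the value given when any 1 library was left out.

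**Figure D3:**
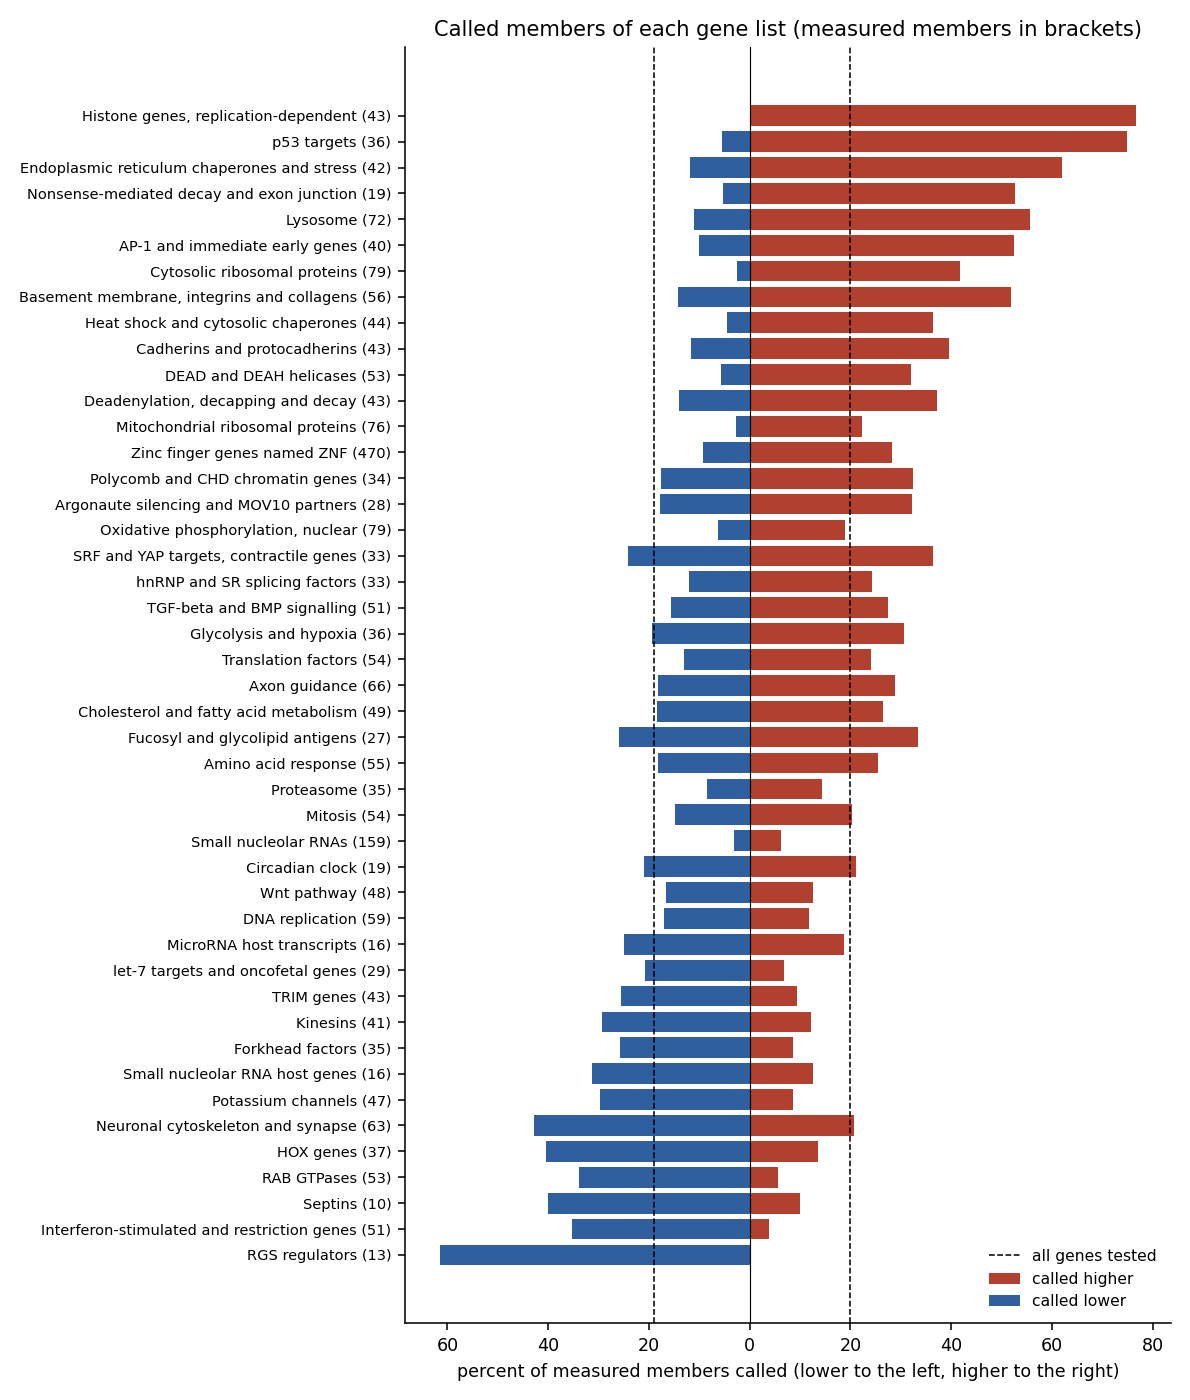
Share of measured members called higher (red, to the right) and lower (blue, to the left) in each list with at least 10 measured genes, whose number is in brackets; dashed lines mark the shares over all genes tested, 19.9% and 19.1%. Replication-dependent histones, p53 targets and endoplasmic reticulum genes extend farthest to the right, and RGS regulators, neuronal and HOX genes farthest to the left.

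Targets of p53, the factor that halts division or kills cells after damage, rose across most of their roles. Of 36 measured targets 27 rose and 2 fell, with a median of 0.39. Among 9 genes of arrest 7 rose, led by CDKN1A and followed by the polo-like kinase PLK2 (0.76 ± 0.07) and BTG2 (0.60 ± 0.06), with GADD45A also among them (0.52 ± 0.05). SFN, an epithelial 14-3-3 protein of this role, stood at 1.74 and 1.17 CPM with knockdown and at 3.72, 4.25 and 4.21 CPM in the controls, a change of -1.41 ± 0.21. Of 12 genes of cell death 7 rose. FAS, a death receptor, stood at 17.9 and 15.5 CPM with knockdown and at 8.38, 8.54 and 8.95 CPM in the controls, a change of 0.97 ± 0.12 (adjusted p = 1.75e-06). Another death receptor, TNFRSF10B, rose by 0.68 ± 0.05, and BAX, which opens the mitochondrial outer membrane, by 0.32 ± 0.07. PERP, a junction protein counted here, fell (-0.33 ± 0.06). All 4 measured genes of DNA repair and nucleotide supply rose, by 0.17 to 0.38, as did all 4 of metabolism, by 0.23 to 0.59. MDM2, the ligase that destroys p53, rose by 0.20 ± 0.05, and the phosphatase gene PPM1D by 0.60 ± 0.06. RPS27L, a paralogue of a ribosomal protein gene that is also a p53 target, rose by 1.05 ± 0.07.

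Immediate early genes, which answer growth factors and stress within minutes, rose by family. Of 40 measured 21 rose and 4 fell, with a median of 0.28. All 4 FOS genes rose: FOS stood at 50.4 and 49.2 CPM with knockdown and at 29.4, 26.5 and 23.1 CPM in the controls, a change of 0.91 ± 0.08, FOSL1 stood at 5.61 and 5.85 CPM with knockdown and at 2.08, 3.00 and 2.40 CPM in the controls, and FOSL2 rose by 0.31 ± 0.08. All 3 JUN genes rose too, by 0.35 (JUN), 0.43 (JUND) and 0.80 (JUNB). EGR1, a zinc finger factor of the early response, stood at 217 and 195 CPM with knockdown and at 121, 99.6 and 102 CPM in the controls, a change of 0.94 ± 0.07 (adjusted p = 4.15e-09). ZFP36L1, which binds AU-rich elements and speeds decay, rose by 1.11 ± 0.06, and its relative ZFP36 by 0.72 ± 0.09. Other members went both ways. KLF10 and KLF6 rose (0.98 ± 0.06 and 0.50 ± 0.07) while KLF5 and KLF4 fell (-0.48 ± 0.07 and -0.33 ± 0.08), and DUSP1 and DUSP2 rose while DUSP4 and DUSP5 fell.

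Actin and YAP-related genes were mixed: of 33 measured 12 rose and 8 fell, with a median of 0.09. ANKRD1, a cardiac ankyrin repeat protein used as a YAP reporter, stood at 12.3 and 8.83 CPM with knockdown and at 3.95, 4.14 and 3.81 CPM in the controls, a change of 1.44 ± 0.14. CTGF, a matricellular growth factor, stood at 5.20 and 5.16 CPM with knockdown and at 2.88, 2.43 and 3.14 CPM in the controls, a change of 0.89 ± 0.15. The knockdown libraries exceeded the controls in both. YAP1 and WWTR1, the coactivators themselves, changed by -0.25 ± 0.05 and -0.36 ± 0.07, and the tropomyosin gene TPM2 by -0.50 ± 0.13.

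Basement membrane, integrin and collagen genes rose more often than they fell, 29 against 8 of 56 measured, with a median of 0.25. Laminins, the sheet-forming trimers, made up 7 of these rises from 11 measured chains. Besides LAMC1 they were led by LAMB1 (0.62 ± 0.07) and LAMA5 (0.59 ± 0.07). Perlecan, HSPG2, stood at 22.8 and 23.8 CPM with knockdown and at 13.7, 13.4 and 17.2 CPM in the controls, a change of 0.67 ± 0.10, and agrin, AGRN, changed by 0.57 ± 0.08. COL4A1 and COL4A2, the paired chains of the common type IV collagen, rose by 0.44 ± 0.07 and 0.45 ± 0.06, whereas COL4A3, a chain of the kidney glomerulus, stood at 1.14 and 1.33 CPM with knockdown and at 3.41, 3.00 and 3.14 CPM in the controls, a change of -1.39 ± 0.20. ITGB1, the beta subunit of most laminin and collagen receptors, stood at 249 and 254 CPM with knockdown and at 170.0, 156 and 160.1 CPM in the controls, a change of 0.63 ± 0.06. ITGB8 stood at 1.68 and 1.65 CPM with knockdown and at 3.68, 3.83 and 4.01 CPM in the controls, a change of -1.19 ± 0.17. So single subunits of a family moved in opposite directions, beyond the spread of their libraries.

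Lysosomal genes rose in most roles, 40 of 72 measured against 8 that fell, with a median of 0.23. LAMP2, a membrane glycoprotein of the lysosome needed for autophagy, stood at 182 and 179.7 CPM with knockdown and at 96.7, 86.2 and 90.4 CPM in the controls, a change of 0.99 ± 0.07 (adjusted p = 6.88e-10). Its relative LAMP1 rose by 0.36 ± 0.06. Among proteases 8 of 12 rose, among them cathepsin A, CTSA (0.67 ± 0.07), CTSO (0.84 ± 0.13) and the tripeptidyl peptidase TPP1 (0.48 ± 0.06). Of 22 sugar and lipid hydrolases 13 rose, PPT1, which removes palmitate from proteins, by 0.67 ± 0.05 and MAN2B1, a mannosidase, by 0.66 ± 0.07, and 3 fell, with iduronate sulfatase, IDS, at -0.63 ± 0.06. The proton pump that acidifies the lumen showed no such lean, with 4 of 13 up, 3 down and a median of -0.04. Of 13 genes of the amyloid precursor family and its secretases, which were counted with the list, 7 rose: BACE1, the beta-secretase, by 0.55 ± 0.09, NCSTN, the nicastrin of gamma-secretase, by 0.48 ± 0.06, ADAM10, an alpha-secretase, by 0.40 ± 0.07 and APP by 0.16 ± 0.05. APLP1 fell (-0.37 ± 0.10). Without knockdown library 2, 4 genes of the whole list fell.

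Genes of the endoplasmic reticulum followed the same direction, with 26 of 42 up, 5 down and a median of 0.21. Of 9 disulfide isomerases, which pair cysteines in folding proteins, 7 rose, TXNDC5 by 0.68 ± 0.11 and PDIA3 by 0.52 ± 0.07. PDIA3 stood at 153 and 155 CPM with knockdown and at 116, 98.7 and 106.9 CPM in the controls, with no overlap. MANF, a secreted stress protein, rose by 0.65 ± 0.06, HYOU1 by 0.57 ± 0.06 and the HSP70 of this compartment, HSPA5, by 0.33 ± 0.06. PPP1R15A, which restores translation after stress, rose by 0.73 ± 0.06, and the stress kinase gene EIF2AK3 by 0.60 ± 0.07. CHAC1 and TRIB3, which the factor ATF4 induces, fell (-0.42 ± 0.12 and -0.41 ± 0.08). They were counted also among 13 ATF4 targets, of which 6 rose and 4 fell, ASNS, the asparagine synthetase, at -0.44 ± 0.07 and NUPR1 at -1.10 ± 0.39 among the latter. With knockdown library 2 left out, 1 gene of the reticulum list fell, and without control library 3 3. Cytosolic chaperones moved less, with 16 of 44 up and a median of 0.10. HSPA8, the constitutive HSP70, rose by 0.51 ± 0.05. That count of rises was 8 without knockdown library 2 and 9 without control library 2.

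Replication-dependent histone genes, whose messages are made in S phase and normally end in a stem-loop rather than a poly(A) tail, included members of every class that rose. Of 73 such symbols 43 were measured, 33 rose and 0 fell, with a median of 0.98. By class 13 of 14 H2B, 6 of 7 H3, 7 of 11 H2A, 4 of 7 H4 and 3 of 4 H1 genes rose. HIST1H4H stood at 24.0 and 17.9 CPM with knockdown and at 7.23, 7.30 and 5.81 CPM in the controls, HIST1H2AC at 17.6 and 12.1 CPM with knockdown and at 7.14, 5.95 and 5.21 CPM in the controls and HIST1H2BD at 36.9 and 27.3 CPM with knockdown and at 14.3, 13.5 and 12.6 CPM in the controls. In each of these genes knockdown library 2 was the highest, and knockdown library 3 exceeded the controls, as the choice required. Their changes were 1.63 ± 0.13, 1.29 ± 0.14 and 1.26 ± 0.10. After removal of knockdown library 2, 17 of the genes rose, and with a minimum count of 50 21. The 9 measured genes listed as replication-independent histone variants had a median of 0.01, with 1 up, H1F0, and 2 down, H2AFY and H2AFV. Small nucleolar RNAs, another class without poly(A) tails, had 10 of 159 up and 5 down, and a median of 0.03. The part of RNA selection or quality in the histone values was not tested. Genes of DNA replication showed few rises: 7 of 59 were up and 10 down, with a median of -0.05, and PCNA, the sliding clamp, changed by -0.35 ± 0.05, RRM2, the S-phase subunit of ribonucleotide reductase, by -0.45 ± 0.05 and E2F1, a driver of S phase, by -0.61 ± 0.06. Without knockdown library 2 those counts were 3 and 5. Members of the histone clusters are near-identical, so reads of single genes may have been divided among copies.

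Genes of the translation machinery and of RNA decay included both rises and falls. Of 79 cytosolic ribosomal protein genes 33 rose and 2 fell, with a median of 0.14. Many of these genes have processed pseudogenes that may share their reads. With knockdown library 2 left out 14 rose, without control library 2 19, and under library totals 21. In nonsense-mediated decay and the exon junction complex 10 of 19 rose and 1 fell, with EIF4A3, the helicase that marks exon junctions, at 0.40 ± 0.05. That count of rises was 5 without knockdown library 2, 5 without control library 1, 6 without control library 3 and 5 under library totals. Of 54 translation factors 13 rose and 7 fell. The most changed was EIF2S1, the alpha subunit of eIF2 on which stress kinases act, which stood at 119 and 126 CPM with knockdown and at 239.6, 226 and 226 CPM in the controls, a change of -0.92 ± 0.06 (adjusted p = 1.68e-09). The genes of the other eIF2 subunits did not pass the test, EIF2S2 at -0.02 ± 0.06 and EIF2S3 at -0.02 ± 0.05. In deadenylation, decapping and other decay 16 of 43 rose and 6 fell, with a median of 0.10. CNOT8, a catalytic subunit of the CCR4-NOT deadenylase, changed by -0.58 ± 0.06. CNOT7, its close paralogue, did not pass the test (-0.07 ± 0.06). The decapping helper LSM14B changed by -0.67 ± 0.06 and the decapping enzyme gene DCP2 by -0.28 ± 0.05.

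Synaptic and neuronal cytoskeleton genes, many of which HEK293 cells express, fell more often than they rose, 27 against 13 of 63 measured, with a median of -0.17. Microtubule genes gave 10 of the falls. DCX, doublecortin of migrating neurons, stood at 0.190 and 0.213 CPM with knockdown and at 0.621, 0.673 and 0.668 CPM in the controls, MAP6 at 1.74 and 2.55 CPM with knockdown and at 4.21, 5.90 and 6.35 CPM in the controls and MAP2, the dendritic microtubule protein, at 2.76 and 4.15 CPM with knockdown and at 7.58, 6.47 and 7.88 CPM in the controls. Their changes were -1.68 ± 0.44, -1.38 ± 0.20 and -1.14 ± 0.18, on low levels. STMN1, the abundant tubulin-binding stathmin, stood at 494 and 483 CPM with knockdown and at 680.5, 704 and 681 CPM in the controls, a change of -0.50 ± 0.05. Members that rose included TUBB3, the neuronal beta-tubulin (0.71 ± 0.13), SNAP25 and CPLX1, parts of the vesicle fusion machinery (1.05 ± 0.20 and 1.47 ± 0.12), and the postsynaptic NLGN3 (0.83 ± 0.14). Of 10 measured septins, the filament-forming GTPases, 4 fell, SEPT3, SEPT8 (-0.62 ± 0.05), SEPT10 (-0.22 ± 0.07) and SEPT6 (-0.19 ± 0.06), and SEPT2 rose (0.19 ± 0.04). After removal of knockdown library 2, 2 septins fell.

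RAB GTPases, the switches of vesicle traffic, showed 18 falls and 3 rises among 53 measured, with a median of -0.12. The falls included RAB3A, RAB3B and RAB3D of regulated secretion (-0.66 ± 0.11, -0.65 ± 0.08 and -0.80 ± 0.09) and RAB27A and RAB27B, which act with them (-0.48 ± 0.10 and -0.69 ± 0.15). RAB38, a RAB of melanosomes, stood at 5.90 and 7.39 CPM with knockdown and at 11.5, 13.1 and 10.8 CPM in the controls, a change of -0.86 ± 0.12. The ubiquitous RAB1A and RAB5A, which serve early secretion and early endosomes, rose by 0.22 ± 0.05 and 0.28 ± 0.06. Without knockdown library 2, 0 RAB genes rose. Of 41 kinesins 12 fell and 5 rose, with a median of -0.02. KIF1C, a motor of Golgi and integrin transport, stood at 90.5 and 92.7 CPM with knockdown and at 163, 161 and 163 CPM in the controls, a change of -0.83 ± 0.06 (adjusted p = 1.53e-09), and KIF5C, a neuronal heavy chain, changed by -0.99 ± 0.09. The kinesin counts were 6 and 2 without knockdown library 2, and 3 rose without control library 1. RGS genes, which switch off G proteins, showed 8 falls and 0 rises among 13 measured, with a median of -0.29, led by RGS4 (-0.85 ± 0.17). In each gene called, both knockdown libraries lay below every control, as they did in 2885 of all 2907 genes that fell. A fit without knockdown library 2, which leaves 1 knockdown library, called 1, and DESeq2 called 5.

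HOX genes, the homeobox factors of body position, had 15 falls and 5 rises among 37 measured, with a median of -0.18. HOXB13, the most posterior of its cluster, changed by -0.77 ± 0.08 and HOXD9 by -0.52 ± 0.11, while HOXA3 and HOXC8 rose (0.30 ± 0.07 and 0.29 ± 0.08). Falls and rises thus occurred within the HOXC cluster, where HOXC4 changed by -0.37 ± 0.08. With knockdown library 2 left out, 7 fell and 2 rose, and without knockdown library 3 or without control libraries 2 or 3 the rises numbered 2 to 3. Zinc finger genes named ZNF went the other way, with 133 of 470 up, 44 down and a median of 0.07. After removal of knockdown library 2 those counts were 70 and 20. Of 9 CHD chromatin remodellers 6 rose, CHD2 by 0.48 ± 0.06 and CHD3 by 0.47 ± 0.05, and CBX7, a reader of Polycomb marks, fell (-0.68 ± 0.10).

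Interferon-stimulated and restriction genes, to which MOV10 is usually counted, fell more often than they rose, 18 against 2 of 51 measured, with a median of -0.14. BST2, the tetherin that holds budding viruses, stood at 0.285 and 0.266 CPM with knockdown and at 0.488, 0.673 and 0.668 CPM in the controls, a change of -1.09 ± 0.40. IFITM1, a membrane protein that blocks viral entry, stood at 2.31 and 2.71 CPM with knockdown and at 4.43, 5.33 and 4.61 CPM in the controls, a change of -0.95 ± 0.19. IFIT2, which binds foreign RNA, changed by -0.67 ± 0.26, and the DNA sensor gene IFI16 by -0.50 ± 0.09. SAMHD1, which depletes nucleotides, rose (0.56 ± 0.07), as did PARP12 (0.40 ± 0.14). The falls numbered 6 without knockdown library 2, 10 without library 3, 9 without control library 2, 11 without control library 3 and 7 by DESeq2.

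Several pathways split between rises and falls. In TGF-beta and BMP signalling 14 of 51 rose and 8 fell, with a median of 0.00. The activin subunit INHBA stood at 2.19 and 2.02 CPM with knockdown and at 0.709, 0.880 and 0.601 CPM in the controls, a change of 1.51 ± 0.24, and the inhibitory SMAD7 rose by 0.55 ± 0.07, while BMPR2, the type II receptor of BMPs, fell (-0.59 ± 0.07). Without knockdown library 2 the counts were 8 and 4, and without knockdown library 3 or control library 1 the falls numbered 5 and 4. In the Wnt list 6 of 48 rose and 8 fell. CTNNB1 was counted with the cadherins, and of 12 measured Wnt targets and inhibitors 0 rose. AXIN2, a target of that pathway, did not pass the test (0.04 ± 0.07). With knockdown library 2 left out, 3 Wnt genes rose and 2 fell. Among cadherins and protocadherins 17 of 43 rose, FAT1 by 0.44 ± 0.08 and CELSR3 by 0.65 ± 0.10, and 5 fell, among them CDH1, the E-cadherin of epithelia (-0.75 ± 0.12). Without knockdown library 3 11 of them rose, and without library 2 3 fell. In glycolysis and hypoxia 11 of 36 rose and 7 fell. HIF1A, the oxygen-regulated factor, stood at 259 and 257 CPM with knockdown and at 169.9, 169 and 162 CPM in the controls, a change of 0.63 ± 0.05, in contrast to SLC2A3. Those counts were 7 up without knockdown library 3 and 3 down without library 2. Of 29 known let-7 targets and oncofetal genes 2 rose and 6 fell. CCND2, a D-type cyclin, stood at 87.3 and 94.5 CPM with knockdown and at 158, 160.4 and 151 CPM in the controls, a change of -0.79 ± 0.06. Without knockdown libraries 2 or 3 the falls numbered 3 and 2, and under library totals 11.

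Among other gene families the leans differed. Of 47 measured potassium channel genes 14 fell and 4 rose, most at low levels, and without knockdown library 2 those counts were 5 and 0. Forkhead factors showed 9 falls and 3 rises among 35, FOXA2 of endoderm at -0.92 ± 0.14, and 5 fell without knockdown library 2. TRIM genes, mostly ubiquitin ligases, showed 11 falls and 4 rises among 43, the neuronal TRIM2 at -1.05 ± 0.08, and 2 rose without library 2. Other RNA helicases of the DEAD and DEAH families leaned up, with 17 of 53 higher and 3 lower. DDX39B, an export helicase, rose by 0.61 ± 0.21, and DDX6, a decapping partner of silencing, fell (-0.25 ± 0.06). After removal of knockdown library 2, 7 helicase genes rose. Without library 3, 1 fell.

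Metabolic groups were divided. In cholesterol and fatty acid metabolism 13 of 49 rose and 9 fell, with FASN, the fatty acid synthase, at 0.35 ± 0.06 and ELOVL6, which lengthens its product, at -0.79 ± 0.07. Without knockdown library 2, 5 of them fell. The sterol exporters ABCA1 and ABCG1 both fell (-0.55 ± 0.18 and -1.40 ± 0.15). Of 79 nuclear genes of oxidative phosphorylation 15 rose and 5 fell, and of 76 mitochondrial ribosomal protein genes 17 and 2. With knockdown library 2 left out those rises numbered 7 and 4. Genes of mitosis gave 11 rises and 8 falls among 54, with the kinase gene PLK1 at 0.40 ± 0.06, and without library 2 6 rises. The proteasome gave 5 and 3 among 35, neither of which was left without library 2.

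Because MOV10 acts with Argonaute, messages with sites for microRNAs were looked at next. A microRNA pairs with a message mainly through its seed, bases 2 to 8, which are in capitals in these mature sequences from RefSeq. They stand for 3 of 12 families usual in kidney cells and for a liver family.
let-7a-5p: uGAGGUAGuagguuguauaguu
miR-16-5p: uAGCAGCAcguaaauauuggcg
miR-30a-5p: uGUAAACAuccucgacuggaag
miR-122-5p: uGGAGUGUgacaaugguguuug
A site was the reverse complement of the seed followed by A, 8 bases in all, CTACCTCA for let-7 and TGTTTACA for miR-30, anywhere in the longest annotated 3' UTR on the sense strand.

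No family stood far from the rest of the genes. Over the 12 kidney families the median log2 fold change of genes with a site ran from -0.032 for miR-10 to 0.00539 for miR-25/92, and over the 3 families of other tissues from -0.028 to -0.011. Of 594 genes with a let-7 site 18.2% rose and 22.1% fell, with a median of -0.02. Of 1257 with a miR-30 site 19.4% rose and 24.5% fell, with a median of -0.01. The 465 genes with a site for miR-122, a microRNA of the liver, gave 18.5%, 22.4% and -0.02. The values of kidney families and of families of other tissues overlapped. A site of any kidney family was held by 5217 genes, of which 21.3% rose and 22.1% fell, against 20.4% and 18.4% of the 8457 without one. Genes with sites have longer 3' UTRs: in the third with the longest 3' UTRs the falls were 24.8% with a site and 23.4% without.

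**Figure D4:**
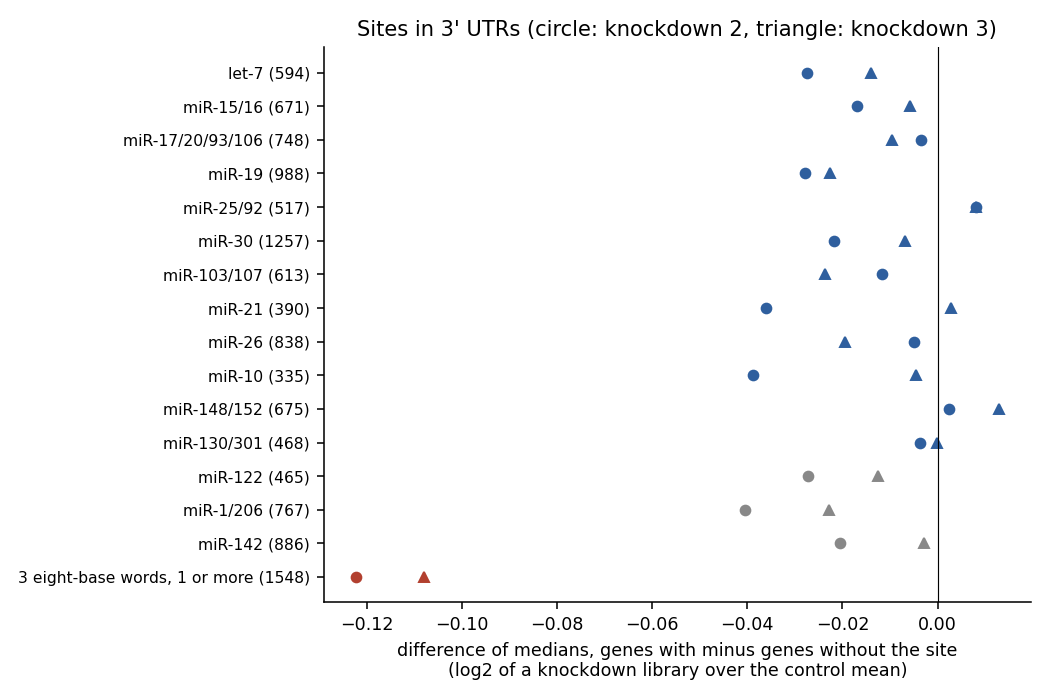
Difference between the median of genes with a site in the 3' UTR and the median of genes without it, on the log2 scale, for knockdown library 2 (circles) and library 3 (triangles) over the control mean; blue rows are microRNA families usual in kidney cells, grey rows families of other tissues, and the red row genes holding at least 1 of 3 eight-base words, with the number of genes in brackets. MicroRNA families lie near zero in both libraries, and the words lie near -0.11. The words were picked as low among 45721 ranked in library 2 against control libraries 1 and 2, so their offset there was fixed by the choice. Those controls are also part of the control mean for library 3. The microRNA families were not picked by such a ranking. Words of this kind were known from an earlier look at all 5 libraries.

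Larger differences went with certain short words of the 3' UTR. All 45721 eight-base words present in at least 100 genes were ranked by the mean fold change of the genes that hold them times the square root of their number, after allowing for 3' UTR length and GC content, in knockdown library 2 against control libraries 1 and 2. The lowest values belonged to AGCAAACA, and, leaving out words that share a run of 6 bases with one above them, to GTCTGTTA at rank 3 and TGGGTCTT at rank 10. The same words were then measured in knockdown library 3 against control library 3, which had no part in the ranking. There the median was -0.11 for AGCAAACA, -0.08 for GTCTGTTA and -0.07 for TGGGTCTT, against 0.01 over all genes ranked. The next such word, TTCAATGG at rank 16, stood at -0.04. At the opposite end of the ranking AAAGCCTT and CACATCAA stood at 0.05, CACTCCCG at 0.04 and AGTATATG at 0.07. Only the first 3 low words were followed further. The pair is 1 library against 1, so it carries no test, and words of this kind were known from an earlier look at all 5 libraries. None of the 2370 mature microRNAs of the RefSeq table has a seed that pairs with the first 7 bases of any of the 3 words. Pairing shifted along a word, or with the transfected siRNAs, was not tested.

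The words are shown within 24 bases of 3' UTR, in capitals, for genes named above that fell, read from GENCODE 29 transcripts (GRCh38, sense strand, 5' to 3').
SEPT3: tgaaaacaAGCAAACAgacactca
NUCKS1: taccttaaAGCAAACAcactaact
CBX5: tcccaaatAGCAAACAaatcactt
EIF2S1: tgtattcaAGCAAACAtcaaataa
CNOT8: aactgaaaAGCAAACAattttact
DIXDC1, first site: atttcgaaAGCAAACAgaagaaaa
DIXDC1, second site: tttctctcAGCAAACAgtcttact
KIF1C, first word: taaaggatAGCAAACAgggagctt
KIF1C, second word: gcaccactGTCTGTTAtggacaaa
SLC2A3: ttgcgtatGTCTGTTAccatgtca
ANP32E: aagaactaGTCTGTTAatgatcat
NOLC1: tatgcaatGTCTGTTAagcatgca
PHACTR1: ccctatctGTCTGTTAatccccag
CBX3: ataaaaatTGGGTCTTagattttg
The genes shown are examples, and CHD2 and SAMHD1, named above, rose and hold a word too. Other holders that rose are shown for contrast, the stress factor ATF3 (0.63 ± 0.05) and the protocadherin PCDH9 (0.60 ± 0.07). In PCDH9 the word AGCAAACA occurs again at base 19165.
ATF3: ccccagagTGGGTCTTggaccagg
PCDH9: acagtggcAGCAAACAtggtgctg
The bases around a word differ between genes, and its place in the 3' UTR varies, for example base 165 in ANP32E, base 10487 in CBX5 and base 16484 in PCDH9.

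The calls of the genes that hold a word are given as a description only, because the fit of all libraries contains the libraries in which the words were ranked as lowest, which fixes the direction. Of 703 genes with AGCAAACA 11.5% rose and 40.5% fell, of 401 with GTCTGTTA 11.2% and 36.4%, and of 585 with TGGGTCTT 14.4% and 32.5%. Genes with none of the 3 words, 12126 in number, gave 21.8% and 17.8%. With exactly 2 of the words, 133 genes, 11.3% rose and 48.1% fell. Their median in the library pair left out of the ranking was -0.18, against -0.08 with 1 word and 0.01 with none. An earlier look at all 5 libraries had shown words of this kind, so that pair is not independent of their choice. With all 3 words there were 4 genes, of which 2 rose and 1 fell. In the third with the shortest 3' UTRs 37.3% of 118 holders fell against 15.8% of the rest, and in the longest 35.9% of 1052 against 20.8%. With overexpression over control, a comparison that shares the control libraries, the median of the genes with at least 1 word was 0.02, beside -0.10 with knockdown over control, both as log2 ratios of mean CPM. Genes with no word gave 0.00 and 0.01. Overexpression cells had a plasmid once and controls an irrelevant siRNA 3 times, so that comparison differs in transfection as well as in MOV10.

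**Figure D5:**
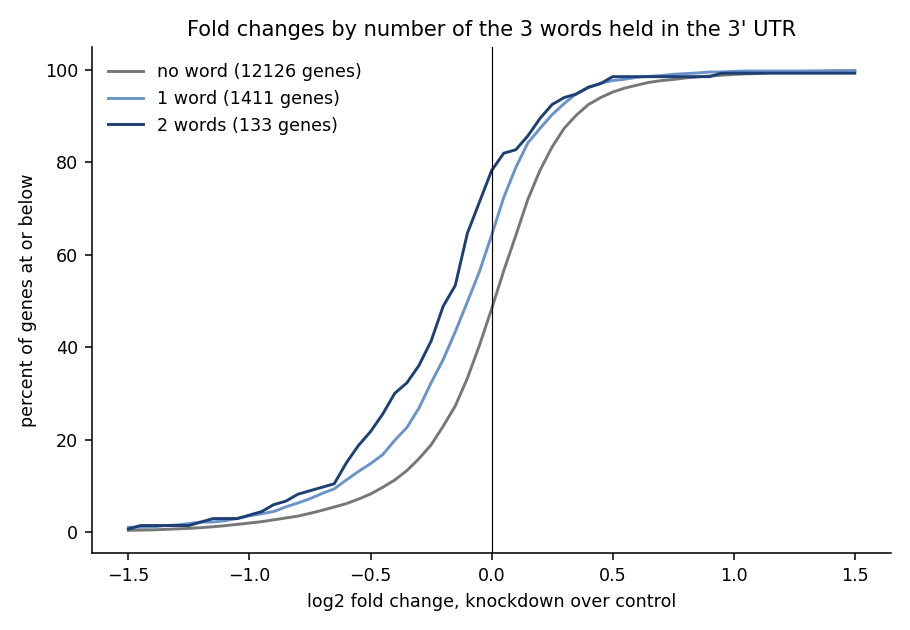
Cumulative share of genes (percent, upward) at or below each log2 fold change of knockdown over control (across), for genes whose 3' UTR holds none (12126), exactly 1 (1411) or exactly 2 (133) of the 3 words. The curves of genes with words lie to the left over most of the range, and 17.8%, 34.7% and 48.1% of the genes of the 3 classes were called lower; the fold changes include the libraries in which the words were ranked.

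The named genes were also set against the overexpression libraries, a comparison that uses no control library; the examples were picked after their values were seen. Knockdown and overexpression differed for 8756 genes (57.4%). HTRA1 stood at 14.9 and 14.9 CPM with knockdown and at 14.6, 16.7 and 15.4 CPM with overexpression, a log2 difference of -0.06 ± 0.09 (adjusted p = 0.565), which did not pass the test. HIST1H2BD was lower with knockdown than with overexpression (-0.28 ± 0.09). FOSB stood at 67.1 and 69.4 CPM against 12.3, 14.5 and 13.8 CPM with overexpression, a difference of 2.34 ± 0.09, larger than that from the controls. DHRS2 and CALR also lay farther from overexpression than from control, at 2.03 ± 0.10 and 0.67 ± 0.05. SEPT3, MAT2B and NUCKS1 differed from overexpression by -1.26 ± 0.09, -1.06 ± 0.06 and -0.76 ± 0.05, close to their distance from control. PLOD2 did not pass this test (0.20 ± 0.10, adjusted p = 0.0834). Among the p53 targets CDKN1A was higher with knockdown than with overexpression (0.33 ± 0.06). GADD45A stood at 155 and 147 CPM with knockdown and at 156, 157 and 165 CPM with overexpression, and did not pass (-0.07 ± 0.05, adjusted p = 0.246), nor did SESN2 (-0.01 ± 0.06, adjusted p = 0.863). BTG2 stood at 102 and 97.3 CPM against 113, 120.0 and 119 CPM with overexpression and was lower with knockdown (-0.23 ± 0.06), as was PLK2 (-0.30 ± 0.07). For these 5 targets the overexpression libraries, too, lay above every control library.

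The cells carried the markers of their line. Of 14 genes typical of HEK293 cells, among them PAX2, WT1 and LHX1 of early kidney and the neurofilament genes NEFM and NEFL, 13 exceeded 1 CPM on average over the 5 libraries. The 14 genes summed to 1995 to 2063 CPM with knockdown and 1780 to 1812 CPM in the controls, and 4 of them rose and 3 fell. Markers of other cells were scarce. The summed level of 10 fibroblast markers was 67.2 to 70.9 CPM with knockdown and 84.3 to 89.4 CPM in the controls, mostly from COL1A1, which is also a member of the matrix list. Those of 8 blood, 6 liver, 6 squamous and 5 endothelial genes each summed to less than 7 CPM in every library.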

How the data were processed

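Total RNA was isolated with Trizol and made into stranded TruSeq libraries, per the labels' protocols. The deposited values are raw read counts per gene symbol. Tools named in the submitters' processing notes are TopHat2 2.0.8, HTSeq 0.5.3p9, Trimmomatic 0.22, CASAVA 1.8.2, edgeR and SAMtools 0.1.18, with hg19 as the build. How strand and multiply aligned reads were handled was not given in the sources used here, and overlapping or near-identical genes may share counts. Libraries were grouped by their titles. Genes were filtered with filterByExpr (minimum count 10, minimum total 15) and tested with edgeR 4.0.16 in R 4.3.3: TMM factors and the two-sided quasi-likelihood F test with Benjamini-Hochberg adjustment, with all 8 libraries and 3 group means in a single model, so that the spread is estimated from all of them. The common biological coefficient of variation was 4.49%. The script was tested on simulated data. No pair of libraries of a group agreed within sampling noise.

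The named genes are MOV10, the 12 higher and 12 lower called genes with the largest fold change among genes averaging a log2 CPM of 3 or more whose knockdown libraries lay beyond every control, 8 and 8 such genes at 8 or more, 4 and 4 between 0 and 3, and leading members of each list; other members are examples chosen after their values were seen. Some genes that this rule names are left out here. Members, lists and tests were chosen with earlier results of these data known. The longest 3' UTRs (at least 50 bases) came from GENCODE 29, another build than hg19, so no genome coordinates are given; 13498 symbols matched by name, 956 by an older symbol and 800 did not. MicroRNA sequences came from RefSeq. Alternatives were size factors, library totals, no filter, a minimum count of 50, DESeq2 1.42.0, limma-voom (limma 3.58.1), a replicate block, a stricter adjusted p (0.01), a tested fold of 1.2, the 5 compared libraries alone, thinning to the shallowest library and leaving out each library.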

Additional observations from a re-analysis of the deposited data

How the results depend on the processing

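Over all settings tried MOV10 kept its direction and its call, with a log2 fold change of -0.54 to -0.68 when 1 library at a time was left out. No fold change of the 256 named genes turned its direction, which their choice by size of change or small adjusted p favoured. The balance of rises over falls did turn, with 2353 genes higher and 3611 lower under library totals. It was 2766 and 2797 without overexpression library 1, and 2422 and 2442 without control library 3. Tested against a fold of 1.2, 722 genes were higher and 978 lower, and at an adjusted p under 0.01 1912 were lower. Leaving out 1 library at a time gave 1577 to 3749 higher and 1466 to 3484 lower genes, the lowest without knockdown library 2 and the highest without overexpression library 3. Genes changed at least 2-fold numbered 61 higher and 117 lower at a minimum count of 50, and 89 and 177 without knockdown library 2. Fitting 5 libraries alone called 3823 higher and 3583 lower, and DESeq2 2668 and 2241. Of 256 named genes 73 lost their call against a fold of 1.2, 24 lost their call without knockdown library 2, 7 without library 3 and 3 by DESeq2. Of 92 list counts 85 moved by over 1.5 times against a fold of 1.2 and 62 without knockdown library 2. Without knockdown library 3, which also leaves 1 knockdown library, 20 moved, and without any other library at most 16. The groups share the numbers 2 and 3. Deviations from the group means correlated across genes at r = 0.00 for number 2 and 0.20 for number 3. Knockdown library 2 with control library 1 gave 0.23. With 2 knockdown libraries their deviations mirror each other, so these values cannot decide on pairing. No label ties the numbers to a shared batch, so the libraries were not paired. With the number as a replicate block 2612 genes were higher and 2557 lower, and 5065 of these 5169 were called without it too. Genes under the count filter were not tested, and ratios of genes near 1 CPM rest on few reads.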
